A study of Mus musculus with 6 samples.

Results

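The genes described here are 36 lysosomal genes of the mouse: cathepsins and other proteases, hydrolases of carbohydrates and lipids, membrane proteins of the lysosome, and progranulin. The list was drawn up by gene name and function, and no measured value enters its rule. All 36 were found among the 31771 gene identifiers of the count table, each with 1 identifier, and all 36 had enough counts to be tested. In the main test of mutant against control spleens, 0 of the 36 passed, beside 12.0% of all genes tested. The 3 mutant animals instead stood apart from one another. Mutant 2 was above every control in 34 of the 36 genes, beside 36.5% of all genes tested. Mutant 1 was below every control in 23 and mutant 3 in 19, beside 45.2% and 42.6% of all genes.

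The lysosome is the acidic compartment in which cells break down proteins, glycans and lipids taken up from outside or delivered by autophagy. Its soluble enzymes are made in the endoplasmic reticulum and sorted through the Golgi apparatus, and a proton pump in its membrane keeps the lumen acidic. Macrophages are rich in lysosomes, and those of the splenic red pulp use them to digest aged red cells. Many lysosomal genes are known targets of TFEB, TFE3 and MITF, which are basic helix-loop-helix factors that bind E-box elements in promoters.

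Pieces of spleen from 3 mutant and 3 control animals were profiled by poly-A RNA sequencing to compare cell composition. All animals were labelled C57BL/6. The mutants (mutants 1 to 3) carried VEC-Cre, a Cre recombinase under the promoter of VE-cadherin, together with the SB transposase and the onc2 transposon; the controls (controls 1 to 3) were WT. The labels have no entry for age, sex, litter or batch, although the sample titles begin with F for mutants 1 and 2 and with M for mutant 3. Beyond the label WT, nothing describes the alleles of the controls. VE-cadherin marks endothelium, and because blood cells arise from embryonic endothelium the Cre is not limited to vessels. SB (Sleeping Beauty) is a mobile DNA element that its transposase inserts at different sites in different animals, and the insertion sites of these animals were not analysed here.

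Libraries held 72902118 to 79258116 counts, and the level of a gene is stated in CPM, its count scaled to a common library size. B-cell markers, which mark a normal spleen, summed to 5253 to 5905 CPM in the controls and to 40.2 to 93.8 CPM in the mutants (8 of 8 markers lower by edgeR). Xist, transcribed from an inactive X chromosome, stood at 1513 and 580 CPM in mutants 1 and 2 and below 1 CPM in the other 4 animals, and Ddx3y on the Y chromosome was near 0 in mutants 1 and 2 only. Sex therefore differed between those 2 mutants and the other 4 animals. Among the 36 genes, Gla, Lamp2 and Ids are X-linked.

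Many fold changes of single genes, though not all, were small against the spread among the mutants. By edgeR's test at a threshold of 0.05 on the adjusted p, 0 of the 36 lysosomal genes were higher and 0 were lower. Over all 19573 genes tested, 12.0% passed (5.08% higher and 6.90% lower). At an unadjusted p under 0.05, 5 of the 36 passed in the edgeR fit, against 31.2% of all genes; the 5 were Gla, Gusb, Lamp2, Tpp1 and Ctse, each higher in the mutants. The median log2 fold change of the 36 was 0.47, beside 0.10 over all genes, with 31 values above 0 and 5 below. The mutants varied widely: the coefficient of variation of CPM, the SD as a share of the mean, was larger among mutants than among controls for all 36 genes, with medians of 71.1% and 8.53%. Over all genes these medians were 44.3% and 11.3%.

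Other methods called a few of the 36. DESeq2 called 3 higher, Gla (adjusted p = 0.00531), Gusb (adjusted p = 0.0212) and Lamp2 (adjusted p = 0.0368), where 10.3% of all genes were called higher; it gave no adjusted p for Ctsc, Ctsh, Ctss and Grn. Limma-voom called 0 of the 36, with 5 at an unadjusted p under 0.05, and 977 genes higher and 1949 lower of all 19573. With a weight for each sample limma-voom called Gla, Lamp2 and Tpp1 higher (7.87% of all genes) and Ctsh and Sgsh lower (8.44%), and with a variance for each group it called Gusb higher (4.30%). The edgeR calls changed when a mutant was left out. Without mutant 1, 5 of the 36 were higher (Ctsd, Ctsl, Gla, Lamp2 and Tpp1; 8.73% of all genes). Without mutant 2, Gla was higher (13.6% of all genes), and Ctsa, Ctsc, Ctsh, Ctss and Ctsz were lower (15.3%). Without mutant 3, Cd63 and Gusb were higher (4.28%). Where the animal left out is the one that differs most for a gene, a small p follows from its removal and does not measure a mutant effect. Leaving out any single control gave 0 calls, with 2 of the 36 at an unadjusted p under 0.05 each time. Over all genes, calls then dropped to 6 higher and 130 lower without control 1, 4 and 119 without control 2, and 8 and 128 without control 3, so these zeros are not particular to the 36.

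The direction depended on the animal. In mutant 2, 34 genes were above all 3 controls and 1, Sgsh, was below them, beside 36.5% and 47.3% of all genes tested. In mutant 1, 12 were above and 23 below (42.7% and 45.2% of all genes). In mutant 3, 11 were above and 19 below (43.5% and 42.6%). The median log2 difference from the control mean reached 1.27 in mutant 2 but only -0.31 in mutant 1 and -0.30 in mutant 3, whereas the median over all genes was between -0.05 and -0.02 in each. In mutant 2, 24 genes were 2-fold or more above the control mean and 0 were 2-fold or more below it. Over all genes these shares were 17.1% and 18.6%. The corresponding counts were 2 and 10 in mutant 1 (18.1% and 27.4% of all genes), and 6 and 7 in mutant 3 (15.7% and 25.7%).

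The commonest arrangement, mutant 2 above the controls and mutants 1 and 3 below them, held for 13 genes: Ctsc, Ctsh, Ctsk, Ctss, Ctsz, Ctsa, Hexa, Ids, Lipa, Npc1, Npc2, Psap and Scarb2. Over all genes 5.47% had it. All 3 mutants were above all 3 controls for 5 genes (Ctse, Gla, Gusb, Cln3 and Lamp2; 18.0% of all genes), and below them for 1 (Sgsh; 22.6%). The remaining genes included Man2b1, Neu1, Idua, Cd63 and Cd68, which were above the controls in mutants 1 and 2 and below them in mutant 3.

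**Figure D1:**
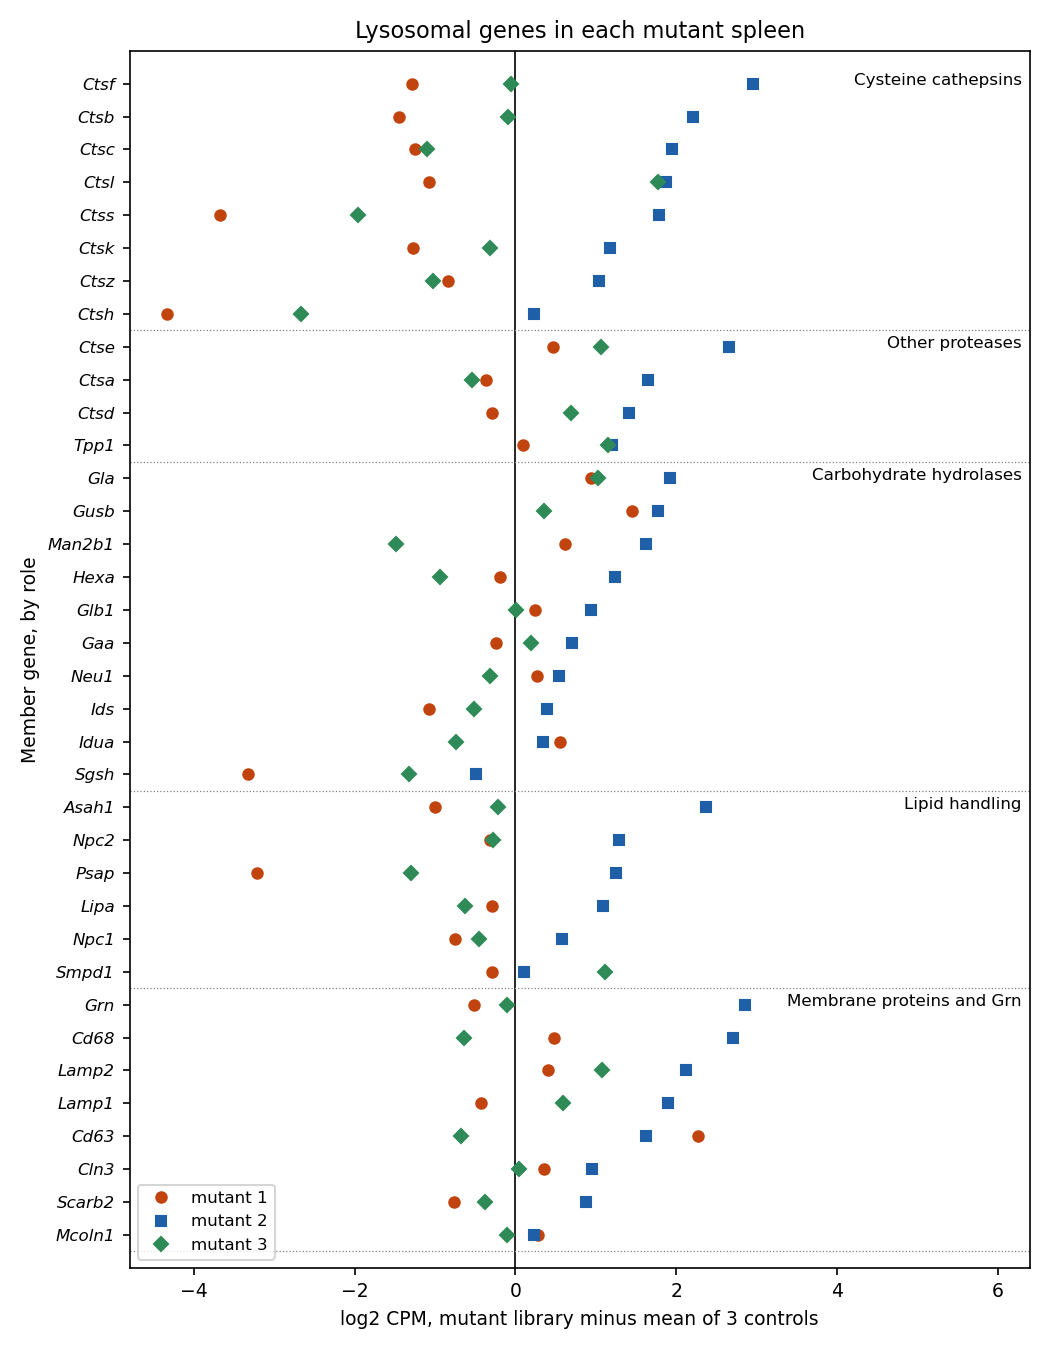
Each row is 1 of the 36 genes, grouped by role, and the horizontal axis is the log2 CPM of a mutant library minus the mean of the 3 controls. Mutant 2 (squares) lies to the right of 0 for all genes but Sgsh, and mutant 1 (circles) lies to the left of 0 for all 8 cysteine cathepsins and all 6 lipid-handling genes.

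Summed over the 36 genes, mutants 1, 2 and 3 reached 4348, 22820 and 5822 CPM, and controls 1, 2 and 3 reached 7210, 7869 and 8553 CPM. Mutant 2 was thus above, and the other mutants below, every control. The group means were 11000 ± 10270 CPM in mutants and 7878 ± 671 CPM in controls (SD, n = 3 each), a log2 ratio of 0.48 that became -0.63 without mutant 2. Psap and Ctsb together made up 44.9 to 47.9% of this sum in the controls and 44.4% in mutant 2, but 35.3% in mutant 3 and 14.9% in mutant 1. Without these 2 genes, the sum of mutant 1 (3700 CPM) and that of mutant 3 (3769 CPM) were closer to the lowest control (3973 CPM), and mutant 2 stayed highest at 12680 CPM.

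Summed macrophage markers differed among the mutants in the same order. The 12 markers of red pulp and marginal zone macrophages summed to 317, 11500 and 1034 CPM in mutants 1, 2 and 3, against 1387 to 1921 CPM in the controls. All 12 were below the controls in mutant 1 and all 12 above them in mutant 2; in mutant 3, 9 were below and 1 above. Among the defining markers, Adgre1 was at 2.95 CPM and Timd4 at 1.62 CPM in mutant 1, against control means of 46.9 and 42.1 CPM. C1qb, which encodes a chain of complement C1q and reached the highest CPM of this list in any single library, was at 49.5, 2281 and 116 CPM in mutants 1, 2 and 3 and at 96.4 to 144 CPM in controls. In a spleen piece, fewer cells of a type and less RNA per cell cannot be told apart. The part of macrophage number in the lysosomal values was not tested.

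The sum of the 8 monocyte markers had the same order, at 178, 3126 and 299 CPM in mutants 1, 2 and 3 against 360 to 487 CPM, but its members did not all share it. In mutant 3, 4 were above and 3 below the controls, and F13a1 was higher in all mutants (83.5, 724 and 68.4 CPM against 6.81 to 9.10 CPM; edgeR adjusted p = 0.0359). Csf1r, the receptor for macrophage colony-stimulating factor, led that list, with 40.0, 1577 and 78.5 CPM. The sum of the 10 markers of neutrophils and their precursors was above the controls in all mutants (1365, 2551 and 1409 CPM against 257 to 413 CPM). In mutant 1, however, 4 of these markers were above and 5 below the controls, and Csf3r alone gave 808 CPM. The 8 mast cell and basophil markers summed highest in mutant 1 (706 CPM, against 52.8 to 58.9 CPM in controls). Gata2 gave 399, Fcer1a 169 and Kit 127 CPM of this sum. In mutant 1, 6 of the markers were above the controls, but the next highest, Ms4a2, reached only 4.86 CPM. Cma1 was below the controls there (0.151 CPM against 0.690 to 1.30 CPM). The sum of the 8 dendritic cell markers was below the controls in all mutants (90.9, 2860 and 104 CPM against 3040 to 3606 CPM), led by the class II gene H2-Ab1. In mutant 2, H2-Ab1 gave 2740 CPM of this sum. There 7 of the 8 markers were below the controls, and Siglech lay within their range. Osteoclast markers summed highest in mutant 3 (892 CPM), of which Itgb3 gave 803 CPM, while Calcr, Dcstamp and Oscar were at or below 0.343 CPM in every library.

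**Figure D2:**
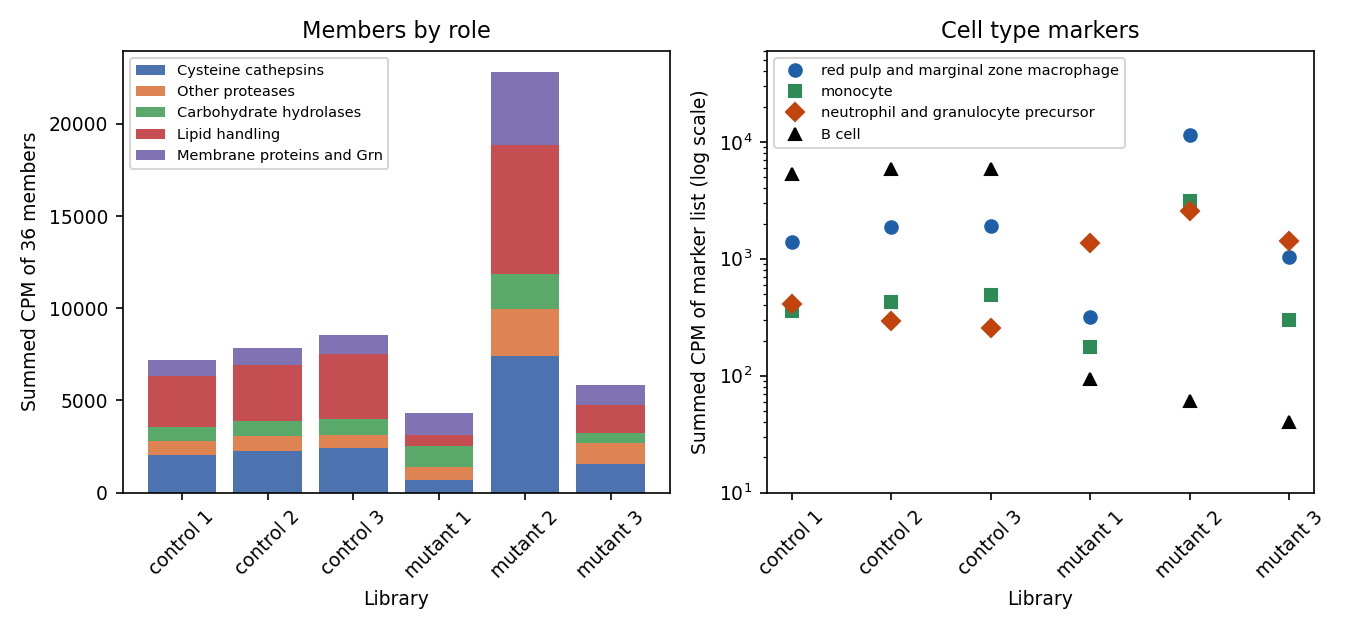
Left, the summed CPM of the 36 genes in each library, stacked by role. Right, summed CPM of 4 marker lists on a log scale. Mutant 2 is highest for the lysosomal genes (22820 CPM) and for macrophage markers (11500 CPM), and mutant 1 lowest for both (4348 and 317 CPM).

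The cysteine cathepsins had the lowest median of the 5 role groups in mutant 1. All 8 were below every control in mutant 1 (median log2 difference -1.28) and above every control in mutant 2 (1.83). In mutant 3, 5 were below and 1 above (median -0.67). None of the 8 passed edgeR.

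Ctss, whose protease trims the invariant chain of class II molecules in antigen-presenting cells, was at 36.8, 1504 and 124 CPM in mutants 1, 2 and 3, and at 427, 442 and 537 CPM in the controls. Its log2 fold change was 0.33 ± 1.24 (SE, n = 3 each; edgeR adjusted p = 0.878), since mutant 2 lay far above and the other mutants far below the controls. Ctsh, an aminopeptidase, was at 13.4, 296 and 43.7 CPM against 250, 281 and 279 CPM; mutant 2 barely left the control range, while mutants 1 and 3 lay well under it. That gene had the most negative log2 fold change of its group, -1.12 ± 1.06 (SE, edgeR adjusted p = 0.510). Ctsf had the largest, 1.60 ± 1.04 (SE; edgeR adjusted p = 0.340), with 5.42, 94.8 and 13 CPM against 13.6, 13.9 and 11.9 CPM, so that mutant 2 alone was high.

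Ctsb, a broadly expressed endopeptidase and dipeptidase, was at 354, 4137 and 923 CPM in mutants 1, 2 and 3, against 842, 1017 and 1014 CPM, with mutant 3 inside the control range. Ctsl behaved differently from the others in mutant 3. Its values were 25.8, 184 and 191 CPM against 52.2, 52.4 and 57.2 CPM, so that mutants 2 and 3 were alike and high. Of its exon length, 26.85% is shared with the antisense gene Gm47123 and 6.09% with the same-strand pseudogene Gm49230. The assignment of reads there is uncertain. Without mutant 1 the log2 fold change of Ctsl was 1.84 ± 0.12 (SE, edgeR adjusted p = 0.00444). This fit is quoted because mutant 1 was seen to differ, so its p does not measure a mutant effect. Ctsz, a carboxypeptidase, was at 171, 580 and 153 CPM against 281, 301 and 323 CPM. Ctsc, the dipeptidase that activates granule serine proteases, had the same arrangement, with 73.3, 624 and 83.3 CPM against 157 to 196 CPM. Ctsk, which degrades bone collagen in osteoclasts, had few counts, at 2.76 to 14.0 CPM in mutants and 5.70 to 7.91 CPM in controls.

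The 4 other proteases were all above the controls in mutant 2. Ctse, an aspartic protease of endosomes, had the largest fold change of the 36. It was at 261.9, 1103 and 404 CPM in mutants 1, 2 and 3, against 238, 221 and 123 CPM in controls 1, 2 and 3. All mutants were above all controls, mutant 1 only just, and control 3 stood below the other controls. The log2 fold change was 1.64 ± 0.63 (SE, n = 3 each; edgeR adjusted p = 0.139). Tpp1, which removes tripeptides from protein ends, was at 120, 238 and 257 CPM against 102, 111 and 121 CPM, high in mutants 2 and 3 and inside the control range in mutant 1 (log2 fold change 0.90 ± 0.32, edgeR adjusted p = 0.116).

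Ctsd, the main aspartic protease of lysosomes, was likewise high in mutants 2 and 3 (512 and 344 CPM) and low in mutant 1 (171 CPM), against 196 to 216 CPM. Ctsa, a serine carboxypeptidase that also protects Neu1 and Glb1 proteins from degradation, had the smallest change of the group, 0.62 ± 0.61 (SE; edgeR adjusted p = 0.532). Its levels were 179, 671 and 162 CPM against 216, 238 and 233 CPM, with only mutant 2 above the controls. Of the exon length of Ctsd, 34.4% is shared with the annotated gene Gm49369 on the same strand, so the assignment of reads there is uncertain.

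The 10 carbohydrate hydrolases were split in direction in mutants 1 and 3. In mutant 1, 6 were above and 4 below the controls, in mutant 2, 9 above and 1 below, and in mutant 3, 3 above and 6 below. Gla, the α-galactosidase that is deficient in Fabry disease, had the smallest p of the 36 in edgeR (unadjusted p = 0.00897, adjusted p = 0.0619). It was at 9.85, 17.9 and 10.7 CPM in mutants 1, 2 and 3, against 5.62, 4.43 and 5.19 CPM, so every mutant was above every control. Its log2 fold change was 1.37 ± 0.37 (SE, n = 3 each), and it passed edgeR without mutant 1 (1.55, adjusted p = 0.0364) and without mutant 2 (0.99, adjusted p = 0.0381).

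Gusb, the β-glucuronidase, was at 205, 238 and 98.3 CPM against 69.9, 74.7 and 78.3 CPM, high in mutants 1 and 2 and a little above the controls in mutant 3 (log2 fold change 1.31 ± 0.36, edgeR adjusted p = 0.0677). Without mutant 3, the animal seen to differ, the fold change of Gusb was 1.62 ± 0.16 (edgeR adjusted p = 0.0134). The p of a fit picked in this way does not measure a mutant effect. At the other end was Sgsh, the sulfamidase of heparan sulfate breakdown, with 3.47, 23.1 and 14.2 CPM against 33.7, 33.6 and 36.7 CPM. All mutants were below all controls, mutant 1 by the most. This was the most negative log2 fold change of the 36, -1.31 ± 0.65 (SE, edgeR adjusted p = 0.223). Card14 on the opposite strand covers 21.6% of its exon length but held few counts.

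The other carbohydrate hydrolases did not move as a block. Man2b1, an α-mannosidase, was at 527, 978 and 125 CPM against 311, 347 and 363 CPM, with mutants 1 and 2 above and mutant 3 below. Hexa, the α subunit of β-hexosaminidase, was above the controls only in mutant 2 (285 CPM against 118 to 142 CPM). Gaa, which breaks down glycogen, Glb1, a β-galactosidase, and Neu1, a sialidase, stayed within 1 log2 unit of the control mean in every mutant. Idua and Ids act on the same glycosaminoglycans, yet differed in mutant 1. There Idua was above the controls (55.9 CPM against 36.2 to 40.0 CPM) and Ids below them (22.7 CPM against 43.2 CPM and more). In mutant 3 both were below the controls, at 23.4 and 34.2 CPM.

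All 6 lipid-handling genes were below the controls in mutant 1, and 5 were above them in mutant 2. Psap encodes the precursor of the saposins, small proteins that present sphingolipids to their hydrolases. It was at 294, 5999 and 1130 CPM in mutants 1, 2 and 3, against 2396, 2627 and 3080 CPM. The mutants thus surrounded the controls, and the log2 fold change was -0.05 ± 1.01 (SE, n = 3 each; edgeR adjusted p = 0.978). Asah1, acid ceramidase, had the largest change of the group, 1.12 ± 0.86 (SE; edgeR adjusted p = 0.417), from 27.4, 261 and 47.9 CPM against 46.5, 54.7 and 61.8 CPM, with mutant 2 alone above the controls.

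Npc1, a membrane transporter of cholesterol, had the most negative log2 fold change of the group, -0.10 ± 0.37 (SE, edgeR adjusted p = 0.883). Its levels were 22.8, 53.0 and 28.6 CPM against 35.6, 34.7 and 44.1 CPM. Its soluble partner Npc2 had the same arrangement (167, 468 and 175 CPM against 193 to 215 CPM), as did the acid lipase Lipa (61.4, 148 and 49.7 CPM against 64.3 to 83.8 CPM). Smpd1, acid sphingomyelinase, was the exception: mutant 3 was high at 65.4 CPM, mutant 1 was below the controls at 24.0 CPM, and mutant 2 lay within their range at 29.3 CPM.

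All 8 membrane proteins and progranulin, taken as a group, were above the controls in mutant 2, and 5 of them also in mutant 1. Grn encodes progranulin, a secreted precursor cleaved in lysosomes, and had the largest fold change of the group, 1.56 ± 0.91 (SE, n = 3 each; edgeR adjusted p = 0.293). Its values were 194, 1851 and 264 CPM against 249, 268 and 306 CPM, with only mutant 2 high. Lamp2, a heavily glycosylated coat protein of the lysosomal membrane, was at 107, 324 and 174 CPM against 75.3, 78.8 and 85.5 CPM, and every mutant was above every control (1.37 ± 0.44, edgeR adjusted p = 0.0915). Lamp1, its close relative, was at 156, 725 and 325 CPM against 193, 202 and 228 CPM, below the controls in mutant 1 and above them in the others.

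Cd63, a tetraspanin of late endosomes and of secretory granules in mast cells, basophils and platelets, was the only gene of the 36 that was more than 4-fold above the control mean in mutant 1. It was at 441, 258 and 58.2 CPM against 87.0, 86.7 and 95.7 CPM, high in mutants 1 and 2 and low in mutant 3. Without mutant 3 the log2 fold change of Cd63 was 1.99 ± 0.23 (SE, edgeR adjusted p = 0.0178). That fit leaves out the animal seen to differ, so its p does not measure a mutant effect. The sum of mast cell and basophil markers was also highest in mutant 1, where Gata2, Fcer1a and Kit made up most of it. That sum was not above the controls in mutant 2 (49.7 CPM), where Cd63 was high. In mutant 3 the sum was above the controls (234 CPM), where Cd63 was low. The part of these cells in the Cd63 value was not tested. Cd68, a sialomucin much used as a macrophage marker, was above the controls in mutant 1 (120 CPM) and mutant 2 (523 CPM) against 72.7 to 97.5 CPM, although all 12 macrophage markers were below the controls in mutant 1.

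Scarb2, the receptor that carries β-glucocerebrosidase to lysosomes, had the smallest change of the group (0.09 ± 0.44, edgeR adjusted p = 0.907), from 55.6, 161 and 74.5 CPM against 91.9, 83.2 and 106 CPM. Cln3, a membrane protein lost in juvenile Batten disease, was above the controls in all mutants by a small margin (50.8, 71.2 and 42.0 CPM against 36.9 to 41.5 CPM). Mcoln1, a cation channel of the lysosomal membrane, varied least of the 36 among the mutants, with 94.0, 83.8 and 73.2 CPM against 72.5, 78.4 and 77.7 CPM and a coefficient of variation of 12.5%.

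**Figure D3:**
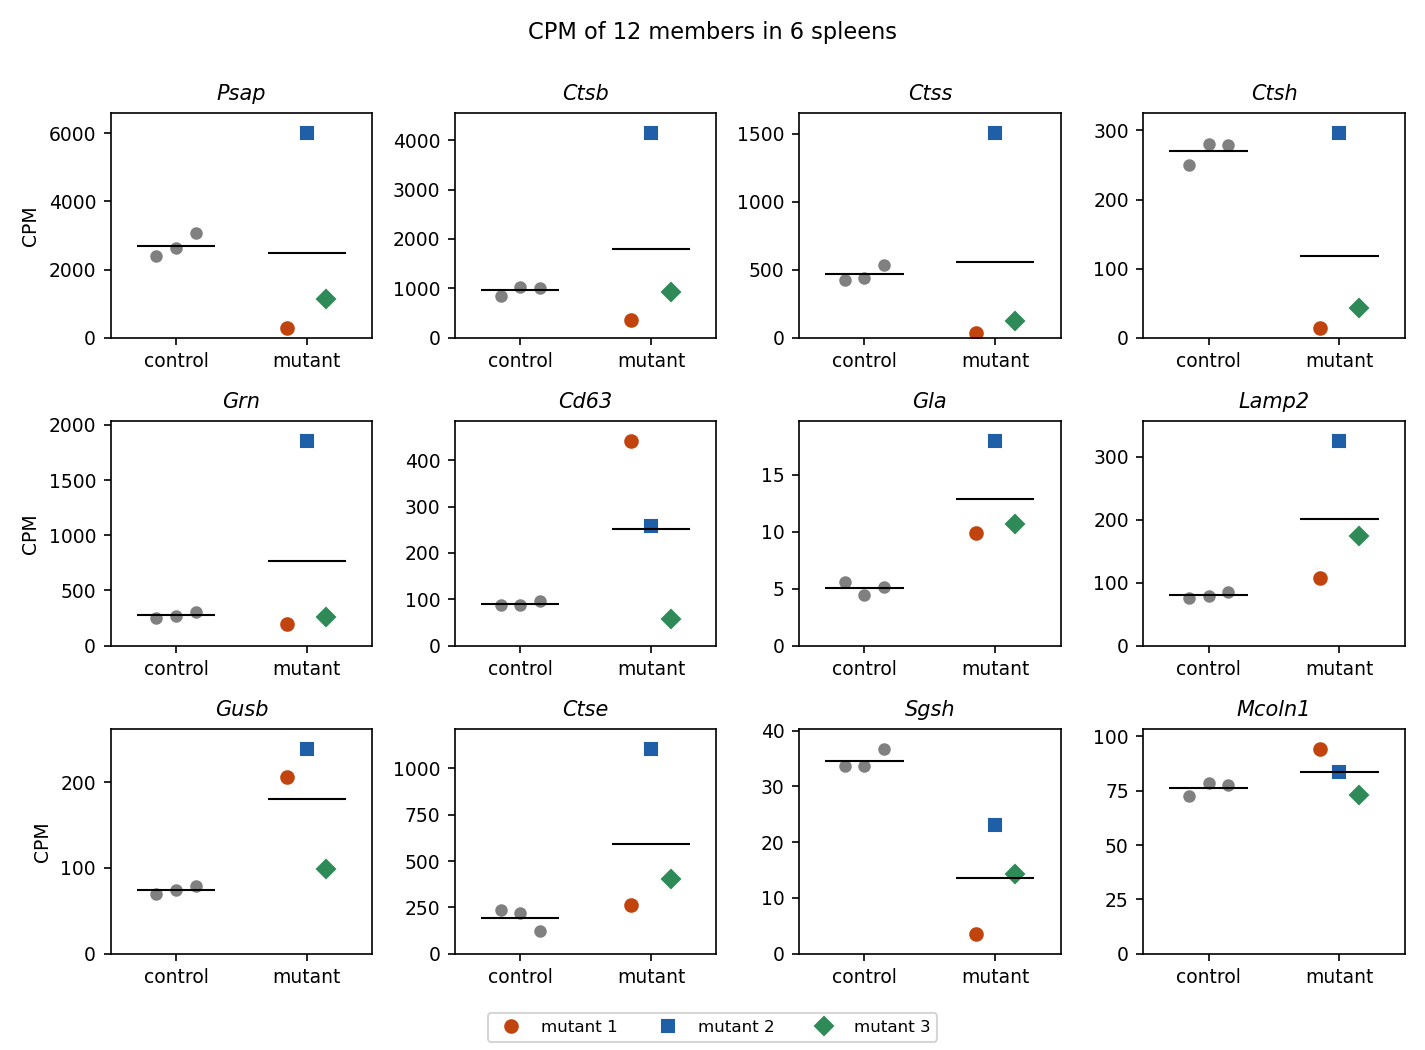
CPM of 12 of the genes in each animal; grey points are controls, coloured symbols are mutants, horizontal lines are group means, and each vertical axis starts at 0. Psap, Ctsb, Ctss and Grn have mutant 2 far above the other 5 animals, whereas Gla, Lamp2, Gusb and Ctse have every mutant above every control and Sgsh every mutant below.

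Leaving out mutant 2 turned the sign of 15 of the 36 fold changes, and 20 were then below 0 against 5 with all animals. The median of the 36 moved from 0.47 to -0.19. Among the genes that then passed, Ctss went to -2.58 ± 0.56 (SE, n = 2 and 3; edgeR adjusted p = 0.0286), Ctsh to -3.28 ± 0.56 (edgeR adjusted p = 0.0157) and Ctsc to -1.17 ± 0.14 (edgeR adjusted p = 0.00666). Psap went to -1.96 ± 0.59 without passing (edgeR adjusted p = 0.0653). Ctsf and Grn, with mutant 3 inside the control range, went from 1.60 to -0.55 and from 1.56 to -0.29. Cd63 stayed at 1.45 and Gusb at 1.004. Mutant 2 was singled out here after its values were seen, so the p-values of this fit do not measure a mutant effect.

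**Figure D4:**
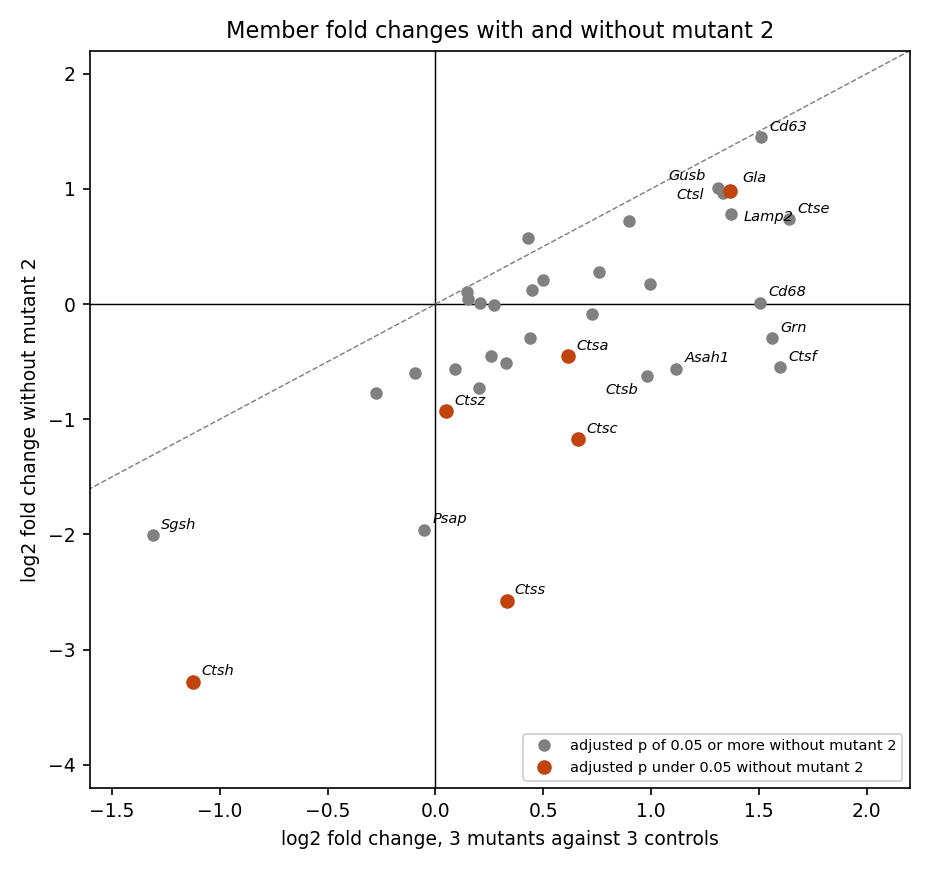
Each point is 1 of the 36 genes; the horizontal axis is the edgeR log2 fold change over all animals and the vertical axis the same without mutant 2, with a dashed line of equality. Most points lie below the line, and the 6 red points (Gla, Ctsa, Ctsc, Ctsh, Ctss and Ctsz) have an adjusted p under 0.05 without mutant 2.

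To compare levels between genes, CPM was divided by the length of all annotated exons of a gene in kilobases. On this scale the most abundant of the 36 in the controls was Psap, at a mean of 984 CPM per kb, followed by Ctss (345), Ctsz (209) and Ctsb (158 CPM per kb). The same 4 led when only exons of basic coding transcripts were counted, where Ctsb was at 202 and Ctsh took rank 5 with 167 CPM per kb. Psap kept the first place in mutants 2 and 3. In mutant 1 Cd63 was first, Ctsz second and Psap the third, and Ctss was at rank 15 and Ctsh at rank 32.

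Promoters of these genes were searched for the E-box CACGTG, the core bound by TFEB and its relatives, because many of the genes moved together in mutant 2. RefSeq windows of GRCm38.p6, from 250 bases before to 50 after a start, were at hand for 31 of the 36, in 34 windows; Ctsb, Ctsh, Ctse, Asah1 and Npc1 had none. The motif reads the same on both strands. It occurred in 11 of the 31 genes (35.5%), against 10.8% of 12697 tested genes with a window and 8.09% of all 27025 genes with a window. Counted by window, it occurred in 32.4% of the 34, against 7.15% of all 32851. The longer palindrome TCACGTGA, which contains CACGTG, was found in 5 of 31 genes (16.1%), against 1.95% of tested genes and 1.12% of all genes with a window. By window the shares were 14.7% of the 34 and 0.974% of all. A match is a description of these letters and not evidence of binding. The genes were listed by function, and many lysosomal genes are known TFEB targets. The shares of the 31 genes use no count from these animals, so they say nothing about the values in mutant 2.

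The 3 stretches are shown for their contrasting patterns, each cut before the earliest annotated start so that no transcribed base is included. Gla, above the controls in every mutant, has 2 matches, 227 and 194 bases before its RefSeq start (chrX:134601126-134601255, minus strand). Lamp1, above them in mutants 2 and 3, has 4 matches at 61, 45, 28 and 15 bases (chr8:13158911-13159160, plus strand). Mcoln1, nearly level across the animals, has matches at 71 and 45 bases, of which the first lies in the stretch shown (chr8:3500269-3500456, plus strand). Sequences are from RefSeq, 5′ to 3′ on the gene's strand, with CACGTG in capitals.
Gla: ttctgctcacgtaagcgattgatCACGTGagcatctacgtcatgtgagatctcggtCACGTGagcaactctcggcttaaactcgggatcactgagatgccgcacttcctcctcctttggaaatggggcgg
Lamp1: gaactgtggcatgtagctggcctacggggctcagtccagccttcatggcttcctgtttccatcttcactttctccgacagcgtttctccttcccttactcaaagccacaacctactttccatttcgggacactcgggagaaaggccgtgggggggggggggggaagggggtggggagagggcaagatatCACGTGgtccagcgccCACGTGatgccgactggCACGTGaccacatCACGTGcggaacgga
Mcoln1: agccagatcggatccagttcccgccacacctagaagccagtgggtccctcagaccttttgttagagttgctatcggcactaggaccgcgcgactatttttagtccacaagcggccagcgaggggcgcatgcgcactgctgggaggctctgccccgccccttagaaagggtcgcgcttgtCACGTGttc

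Genes with and without the motif had similar values in mutants 1 and 2. The 11 genes with it (Cln3, Ctsa, Ctsd, Ctsf, Ctsl, Gaa, Gla, Glb1, Lamp1, Mcoln1 and Sgsh) had median log2 differences of -0.29, 1.41 and 0.05 in mutants 1, 2 and 3. The 20 genes with a window but no match had medians of -0.29, 1.25 and -0.57. Mutant 3 was above the controls in 6 of the 11 and in 4 of the 20, a difference that was not tested.

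Among other genes of the pathway, 95 of 96 listed were tested, with a median log2 fold change of 0.14. By edgeR 3 were higher and 2 lower, beside 5.08% and 6.90% of all genes. Tfeb, the transcription factor of lysosome biogenesis, fell in all mutants, to 17.9, 30.3 and 26.8 CPM from 96.0, 109 and 104 CPM (-2.03 ± 0.26, SE, edgeR adjusted p = 0.0109). Its relative Tfec rose, to 24.6, 18.9 and 8.05 CPM from 3.68, 4.48 and 5.03 CPM (1.99 ± 0.47, edgeR adjusted p = 0.0458), but missed the edgeR threshold without mutant 1 (adjusted p = 0.0607) and without mutant 2 (adjusted p = 0.0508). B-cell markers fell in the same animals, and their part in the Tfeb value was not tested. The other relatives Tfe3 and Mitf did not pass (0.49 ± 0.38 and 0.60 ± 1.04, edgeR adjusted p = 0.429 and 0.729).

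Of 13 other membrane proteins, 1 fell: Lamp3, a marker of mature dendritic cells, at 0.0672 to 0.165 CPM against 1.502 to 1.804 CPM (-4.01 ± 0.51, edgeR adjusted p = 0.0104). Of 6 cathepsin inhibitors tested, 1 rose: Stfa1, a stefin found in granulocytes. It had 0 counts in the controls and 1.30 to 2.15 CPM in the mutants, at least 47.5-fold higher against a floor of 3 counts per control library; the near-identical stefin copies make its assignment uncertain. All 5 calls of these lists were lost when any single control was left out, with edgeR adjusted p from 0.0568 for Stfa1 to 0.190 for Tfec and fold changes in the same direction. As over the whole table, few genes of any kind passed without a control. Some other settings gave more calls among the related genes. DESeq2 called 9 higher (10.3% of all genes) and 3 lower (2640 genes over the whole table). Without mutant 1, edgeR called 8 higher (8.73%) and 2 lower (1930 genes over the whole table). Without mutant 2 it called 5 higher (13.6%) and 21 lower (15.3%).

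The proton pump showed no call among 17 subunits tested by edgeR (median log2 fold change 0.29). In mutant 2, 15 of the 17 were above the controls, beside 36.5% of all genes. There was also no call among 7 genes of enzyme sorting (0.12) or 12 of autophagy (0.10). Within the other hydrolases, mutant 2 was above the controls for 16 of 25, beside 36.5% of all genes. Mutants 1 and 3 were below them for 18 and 16, beside 45.2% and 42.6% of all genes. Lgmn, the asparaginyl endopeptidase that processes cathepsins, had the pattern of Ctsb, at 73.9, 1387 and 195 CPM against 176, 217 and 235 CPM.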

How the data were processed

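The authors deposited whole-number read counts per Ensembl gene for the 6 libraries, with no normalization. Stranded poly-A libraries were made from spleen RNA, per the labels' protocols. Per the submitters' processing notes, STAR 2.5.3a, limma, mm10 and GRCm38 were used, in roles the notes do not state. No source used here states the annotation, the strand setting or the treatment of multi-mapping reads, so reads of overlapping, antisense or near-identical genes are uncertain. Nothing states the source of replicates beyond separate animals; replicate numbers follow accession order and pair no samples.

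From these counts, CPM (without TMM factors) and log2 CPM (TMM, prior count 2) were computed, and mutants were compared with controls by edgeR 4.0.16 in R 4.3.3 (TMM factors, expression filter, robust quasi-likelihood test, Benjamini-Hochberg adjustment at 0.05 over 19573 genes). The SE is the log2 fold change over the square root of F. Exon lengths are from GENCODE M21. Alternatives were RLE and upper-quartile factors, other filters, DESeq2 1.42.0, limma-voom (limma 3.58.1) in 3 forms, omission of 333 haemoglobin and immunoglobulin genes, and omission of each library. The procedure was tested on simulated counts. The genes and all lists were chosen with earlier results of these data known. The rule for naming takes the 3 genes most abundant per kilobase and, per role, the highest and the lowest log2 fold change with its sign. It also takes up to 2 passing genes per related list and the most abundant marker per list. Further genes were named after their values were seen. The result of 1 related gene is not reported here. Of the marker lists, those not described with values in the report were T cell (18.8, 266 and 18.9 CPM in mutants 1, 2 and 3 against 713 to 862 CPM in controls, led by Cd4), plasma cell (180, 468 and 277 against 1450 to 1847, led by Jchain), erythroid (4668, 44820 and 3427 against 52180 to 81620, led by Hbb-bs) and stroma and endothelium (439, 648 and 673 against 1178 to 1386, led by Ccl21a).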

Additional observations from a re-analysis of the deposited data

How the results depend on the processing

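Over 15 alternatives, 540 fold changes of the 36 genes were recomputed: 476 kept their direction and side of the threshold, 18 kept their direction and newly passed, and 46 changed sign. The 476 include 4 DESeq2 values without an adjusted p, which were counted as not passing. Of the 36 genes, 15 kept their sign in all 15. Counts of genes called were 3 higher with DESeq2, 3 higher and 2 lower with sample weights in limma-voom, and 1 higher with a variance for each group. They were 0 with RLE or upper-quartile factors, with either filter, with plain limma-voom and without haemoglobin and immunoglobulin genes. With each library left out in turn, edgeR called 0 to 5 of the 36 higher and 0 to 5 lower, the median fold change ran from -0.19 to 0.75, and the log2 ratio of summed CPM from -0.63 to 0.86, with both lowest when mutant 2 was left out. Upper-quartile factors moved the median of all genes from 0.10 to 0.00276. With them Ctsz (-0.061) and Scarb2 (-0.024) turned negative. In plain limma-voom these were Ctsc (-0.13), Ctsk (-0.16), Ctss (-1.28), Ctsz (-0.27) and Scarb2 (-0.092), and with a variance for each group the same 5 (-0.14, -0.16, -1.29, -0.28 and -0.094). Sample weights gave Ctsc -0.45, Ctsk -0.18, Ctss -1.50, Ctsz -0.52, Ctsa -0.025, Hexa -0.28, Man2b1 -0.32, Neu1 -0.004, Idua -0.22, Lipa -0.17 and Scarb2 -0.17. The cause was not tested. Leaving out 1 library gave these ranges of log2 fold change for genes that changed sign: Ctsb -0.62 to 1.48, Ctsc -1.17 to 1.12, Ctsf -0.55 to 2.13, Ctsk -0.72 to 0.62, Ctss -2.58 to 0.89, Ctsz -0.93 to 0.39, Ctsa -0.45 to 0.97, Gaa -0.004 to 0.48, Hexa -0.51 to 0.70, Man2b1 -0.084 to 1.21, Ids -0.77 to 0.012, Idua -0.085 to 0.45, Asah1 -0.56 to 1.59, Lipa -0.45 to 0.56, Npc1 -0.60 to 0.16, Npc2 -0.30 to 0.71, Psap -1.96 to 0.49, Smpd1 -0.086 to 0.70, Scarb2 -0.56 to 0.39, Grn -0.29 to 2.04. The sum without Psap and Ctsb, chosen after seeing the data, had a log2 ratio of 0.67. Tfec also missed the threshold with upper-quartile factors and in plain or weighted limma-voom. No paired analysis was possible because replicate numbers only name the animals. With 3 animals a group and mutants that vary this much, changes of the size seen here could go undetected.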
